A study of Mus musculus with 8 samples.

Results

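The genes described here are 35 genes of glucose and lactate transport, glycolysis and the transcriptional response to low oxygen, out of 21427 genes in a table of RNA-seq read counts. They are grouped by function, by a rule that uses no difference between the samples, although results of these data were known when the list was drawn up. Each gene was represented by the RefSeq transcript record that had the highest mean count among its records. The cells were 8 clones of mouse induced pluripotent stem cells (iPSCs) derived from embryonic fibroblasts (MEFs), 4 of them control (Ctrl 33, 34, 41 and 43) and 4 Piwi triple knockout (TKO 35, 37, 47 and 48). The TKO clones lack *Miwi*, *Mili* and *Miwi2*, the PIWI genes whose proteins bind piRNAs in the germline, and the Ctrl clones came from triple heterozygous MEFs by the methods and from wild-type or heterozygous littermates by the legends. All 8 carry an Oct4-GFP reporter and retroviral OCT4, SOX2, KLF4 and c-MYC, have a mixed strain background and were below passage 10. They were grown in serum and LIF, and each library is 1 individual clone, with no label that ties a clone to an embryo. The clone numbers fall into a thirties series (33 and 34 against 35 and 37) and a forties series (41 and 43 against 47 and 48). What the numbers stand for is not stated, and p-values here measure the spread between clones.

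Glycolysis turns glucose into pyruvate in a chain of enzymes, and lactate dehydrogenase and a lactate exporter let the chain run without oxygen. When oxygen falls, prolyl hydroxylases stop marking the HIF alpha subunits for destruction. HIF then binds a short motif with the core RCGTG near genes for glucose uptake, nearly every glycolytic step, mitophagy, collagen modification and pH control. Pluripotent stem cells draw heavily on glycolysis even with oxygen present, and reprogramming of fibroblasts includes a shift towards it.

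The Ctrl libraries held 8983203 to 24688324 reads and the TKO libraries 24593995 to 52457455, with TKO 35 and TKO 37 the deepest and Ctrl 33 the shallowest. Markers of pluripotent cells summed to between 124850 and 178770 normalized counts in all 8 clones. Of 9 tested, 1 was lower in TKO over all clones, against 0.154% of all records. Both TKO clones lay above both Ctrl clones for 7 of these markers in the forties (26.6% of all records) and 1 in the thirties (29.5%). The part of these markers in the results was not tested. Markers of fibroblasts, which could come from feeder or source cells, were all 10 detected in every clone. They summed to 64076 and 39481 in Ctrl 33 and 34 against 23253 and 21227 in TKO 35 and 37, but to 24789 and 25584 in Ctrl 41 and 43 against 39017 and 29982 in TKO 47 and 48. In RNA from whole cultures, fewer cells of a type and less RNA per cell cannot be told apart. Reads on genes with several RefSeq records were few. The median Ctrl level was 1101 counts per kilobase for the 24 members with 1 record and 6.85 for the 11 with several. Over all genes, the level of the best record was averaged over all 8 clones. Its median was 39.0 counts per kilobase for genes with 1 record, 4.12 with 2 and 2.32 with 3 or more. The levels of *Ldha*, *Aldoa*, *Hk1*, *Pfkm*, *Slc16a3*, *P4ha2*, *Plod2*, *Mxi1*, *Kdm3a*, *Pfkfb3* and *Vegfa* are therefore not comparable with those of other genes, although each can be compared between clones. Several glycolytic genes also have near-identical processed copies in the mouse genome, and how the counting treated reads that match more than 1 sequence is not given in the sources used here.

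Among the 24 members with 1 record, the highest level per kilobase in Ctrl clones was that of *Pgk1*, phosphoglycerate kinase, at 29910 ± 6228 normalized counts per kilobase (SD, n = 4). Next came *Pgam1*, phosphoglycerate mutase, at 17030 ± 2134, and *Slc2a3*, the high-affinity glucose transporter GLUT3, at 12200 ± 1935. *Gapdh* followed at 8936 ± 743, *Gpi1* at 7644 ± 539, *Tpi1* at 7549 ± 1204 and *Slc2a1*, the transporter GLUT1, at 6088 ± 1129 per kilobase. Of these neighbours, *Gpi1* and *Tpi1* were closer to each other than the SD of either, and each other step was larger than both SDs. The lowest were *Ndufa4l2* at 56.6 ± 33.4 and *Car9* at 15.3 ± 8.23 per kilobase. Reads on the 35 members together made up 0.918 to 1.06% of all reads in the Ctrl clones and 1.45%, 1.45%, 1.42% and 1.08% in TKO 35, 37, 47 and 48.

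A count filter of at least 5 reads in at least 4 libraries left 32 of the 35 members, and each of these 32 had 5 or more reads in every library. *Vegfa*, the angiogenic growth factor, was listed at 0 on all 6 of its records in all libraries. *Pfkfb3*, which makes the activator of phosphofructokinase, ran from 0 to 2.90 normalized counts, and *Kdm3a*, a histone demethylase, from 0 to 4.53. These 3 were not tested.

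Most members sat higher in the TKO clones, and none was called lower. Over all 8 clones the fitted change was above 0 for 30 of 32 members, against 49.5% of all 16235 records tested, and the median log2 fold change of the members was 0.56 against -0.01 for all records. In edgeR's quasi-likelihood test 1 member, *Bnip3*, passed an adjusted p of 0.05, against 0.24% of all records (0.0862% higher and 0.154% lower). With unadjusted p-values under 0.05 there were 21 members on the higher side and 0 on the lower, where all records had 7.42% and 7.39%. The counts of all 4 TKO clones lay above those of all 4 Ctrl clones for 8 members, *Gpi1*, *Pgam1*, *Eno2*, *Ldha*, *Bnip3*, *Higd1a*, *P4ha2* and *Ndrg1*, against 4.1% of all records. No member had all TKO clones below all Ctrl clones, against 4.23%.

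The clones of a genotype were not alike. The median member stood at 0.65, 0.66 and 0.60 above the Ctrl mean on the log2 scale in TKO 35, 37 and 47 but at 0.07 in TKO 48, which is within the range of the Ctrl clones (-0.25 to 0.11). TKO 35 held the highest value of 11 members, TKO 47 of 10 and TKO 37 of 8, and TKO 48 of 0. Ctrl 34 held the lowest value of 16 members and Ctrl 43 of 8. Without TKO 48 the test over all clones called 7 members in place of 1, and without any 1 of Ctrl 34, Ctrl 41, Ctrl 43, TKO 35 or TKO 47 it called 0. With the clone series as a term, the test called 8 members higher and 0 lower, against 5.7% of all records (2.6% higher and 3.1% lower): *Gpi1*, *Eno2*, *Ldha*, *Bnip3*, *Ndufa4l2*, *Higd1a*, *P4ha1* and *Ndrg1*. That number was 20 without TKO 48, 7 without Ctrl 33 or Ctrl 34, and from 2 to 5 without any other clone. Shares of all records called in the fits without a clone are not given here. The counts are therefore not read as particular to the members or to TKO 48.

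**Figure D1:**
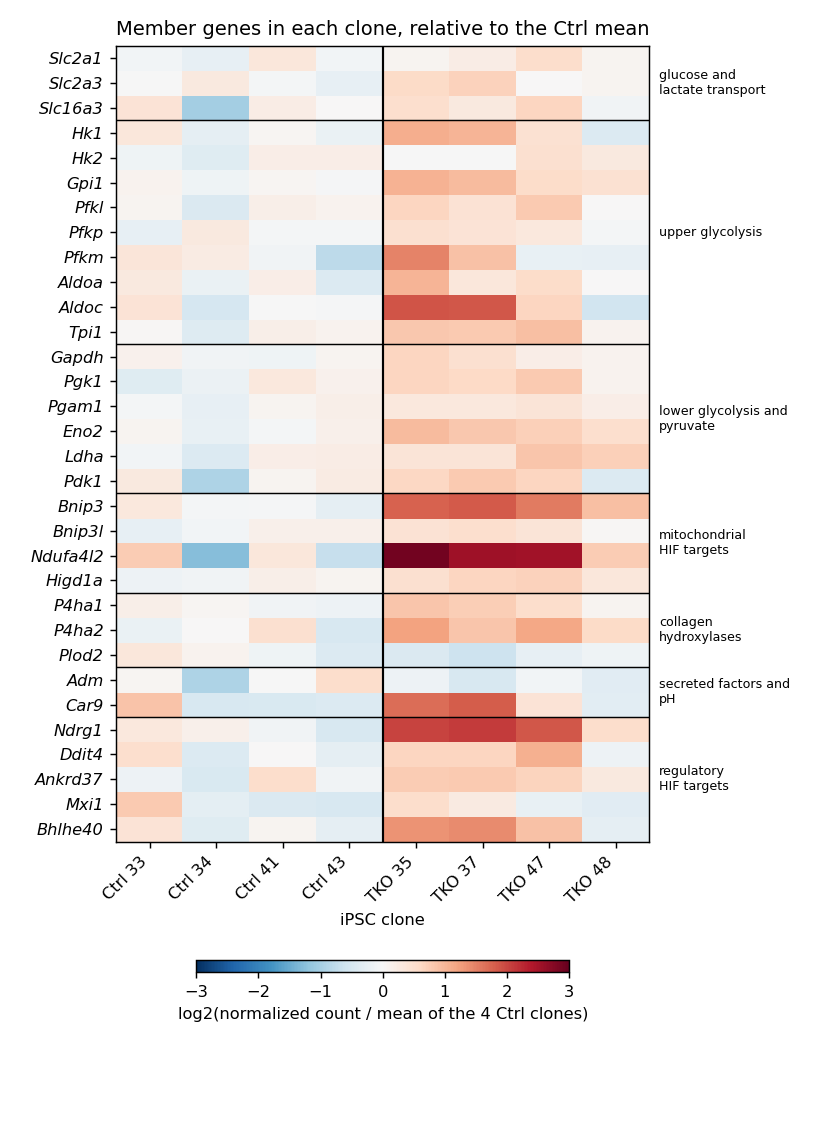
Each row is 1 of the 32 tested members, grouped by role, and each column is 1 clone. Colour gives the log2 ratio of the normalized count to the mean of the 4 Ctrl clones. The TKO 35, 37 and 47 columns are mostly red, with medians of 0.65, 0.66 and 0.60, and the TKO 48 column, with a median of 0.07, is mostly pale.

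Of the glucose carriers *Slc2a1* and *Slc2a3* and the lactate exporter *Slc16a3*, 0 of 3 passed the test over all clones or had an unadjusted p under 0.05, with log2 fold changes of 0.24, 0.37 and 0.38. *Slc2a3* (chr6:122677827-122751658, minus strand, mm9) is the carrier with the most reads and had 48020, 58980, 46270 and 40610 normalized counts in Ctrl 33, 34, 41 and 43 and 71800, 78000, 49190 and 51030 in TKO 35, 37, 47 and 48. TKO 35 and 37 were the highest, whereas TKO 47 and 48 lay inside the Ctrl range. Within the forties both were above both Ctrl clones, as in 26.6% of all records. *Slc2a3* rose in the thirties series by a log2 fold change of 0.49 ± 0.12 (SE, adjusted p = 0.0313) and differed by 0.21 ± 0.12 in the forties (adjusted p = 0.367).

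Of the 9 tested genes of upper glycolysis, 0 passed over all clones (5 had an unadjusted p under 0.05), 1 passed with the series term and 3 rose in the thirties series (*Gpi1*, *Aldoc* and *Tpi1*). Over all clones 7.42% of all records were higher at an unadjusted p under 0.05. Called higher were 2.6% with the series term and 4.83% in the thirties. *Gpi1* (chr7:34987141-35015308, minus strand, mm9) encodes glucose phosphate isomerase, which turns glucose 6-phosphate into fructose 6-phosphate. It had 23420, 19910, 22640 and 21350 normalized counts in Ctrl 33, 34, 41 and 43 and 44810, 42270, 32120 and 29810 in TKO 35, 37, 47 and 48. Every TKO clone was above every Ctrl clone, and TKO 35 and 37 were above TKO 47 and 48. *Gpi1* rose by 1.01 ± 0.10 on the log2 scale in the thirties (adjusted p = 0.0017) and by 0.49 ± 0.10 in the forties (adjusted p = 0.0486). Over all clones the change was 0.77 ± 0.14, which missed the threshold (adjusted p = 0.0656) until the series was a term (adjusted p = 0.0105).

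The products of the 2 aldolase genes split fructose 1,6-bisphosphate, and *Aldoc* is described because of its values. It had 544.5, 288.0, 405.0 and 402.4 normalized counts in Ctrl 33, 34, 41 and 43 and 1509, 1494, 641.1 and 276.2 in TKO 35, 37, 47 and 48. TKO 35 and 37 were far above all others, and TKO 48 was the lowest of the 8. The change of *Aldoc* was 1.88 ± 0.38 in the thirties (adjusted p = 0.0167) and 0.18 ± 0.36 in the forties (adjusted p = 0.832). *Aldoa* was also highest in TKO 35, with changes of 0.66 ± 0.30 in the thirties (adjusted p = 0.172) and 0.38 ± 0.29 in the forties (adjusted p = 0.512), within a TKO range of 767.8 to 1541 and a Ctrl range of 573.6 to 929.1 normalized counts. *Tpi1*, triose phosphate isomerase, rose in the thirties by 0.95 ± 0.22 (adjusted p = 0.0269) and differed by 0.41 ± 0.22 in the forties (adjusted p = 0.333). The hexokinases and phosphofructokinases, which carry the steps that commit glucose to the pathway, passed in neither series, with changes between 0.23 for *Hk2* and 1.03 for *Hk1* in the thirties and between 0.15 for *Hk1* and 0.30 for *Pfkl* in the forties.

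In lower glycolysis, 0 of 6 genes passed over all clones (5 were higher at an unadjusted p under 0.05), *Eno2* and *Ldha* passed with the series term, and *Gapdh*, *Pgk1*, *Pgam1*, *Eno2* and *Ldha* rose in the thirties. All records had 7.42% higher at an unadjusted p under 0.05 over all clones. Calls higher made up 2.6% of them with the series term and 4.83% in the thirties. Only *Pdk1*, the kinase that shuts pyruvate out of the mitochondrial cycle, did not pass there, at 0.90 ± 0.39 (adjusted p = 0.158). *Eno2* (chr6:124710071-124719691, minus strand, mm9), the neuronal enolase, had 243.8, 198.7, 223.3 and 257.8 normalized counts in Ctrl 33, 34, 41 and 43 and 447.6, 404.0, 381.7 and 328.3 in TKO 35, 37, 47 and 48. The genotypes did not overlap, and the change with the series term was 0.75 ± 0.15 (adjusted p = 0.0249). *Ldha* (chr7:54096845-54110997, plus strand, mm9), the lactate dehydrogenase subunit that favours lactate, had 1059, 836.6, 1283 and 1303 normalized counts in the Ctrl clones and 1462, 1460, 1989 and 1842 in the TKO clones, in the same order. The groups did not overlap here either, and the forties clones were the higher within each genotype. With the series term *Ldha* rose by 0.60 ± 0.09 (adjusted p = 0.0114), with nearly equal changes of 0.63 in the thirties and 0.57 in the forties.

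*Pgk1* (chrX:103382439-103399038, plus strand, mm9), the most abundant member by reads, had 42320, 47950, 67420 and 59570 normalized counts in Ctrl 33, 34, 41 and 43. In TKO 35, 37, 47 and 48 it had 85060, 82210, 93790 and 58510. TKO 48 lay inside the Ctrl range and the other 3 TKO clones above it. *Pgk1* rose by 0.89 ± 0.19 in the thirties (adjusted p = 0.02), with 0.26 ± 0.19 in the forties (adjusted p = 0.474). *Gapdh* and *Pgam1* rose less in the thirties, by 0.55 ± 0.11 (adjusted p = 0.019) and 0.46 ± 0.10 (adjusted p = 0.0234).

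Of the 4 mitochondrial HIF targets 1 passed over all clones, 3 passed with the series term and 4 rose in the thirties. Called higher in the same comparisons were 0.0862%, 2.6% and 4.83% of all records. The fitted changes of the 4 targets over all clones ran from 0.35 for *Bnip3l* to 2.42 for *Ndufa4l2*. *Bnip3* (chr7:146082519-146101202, minus strand, mm9), an outer membrane receptor that directs mitochondria to autophagy, had 2365, 1822, 1868 and 1580 normalized counts in Ctrl 33, 34, 41 and 43 and 6542, 6872, 5646 and 3549 in TKO 35, 37, 47 and 48. Its lowest TKO clone, TKO 48, was above its highest Ctrl clone. *Bnip3* rose by 1.57 ± 0.21 over all clones (adjusted p = 0.0155), by 1.68 ± 0.21 in the thirties (adjusted p = 0.00336) and by 1.41 ± 0.21 in the forties (adjusted p = 0.0211). The exact permutation test over the 70 arrangements of the clones gave an unadjusted two-sided p of 0.0286, the smallest that 4 against 4 allow. The adjusted p over all clones ran from 1.55e-09 to 0.0828 under the alternatives, and was above 0.05 without any 1 of Ctrl 34, Ctrl 41, Ctrl 43, TKO 35 or TKO 47.

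*Bnip3l* (chr14:67604076-67627714, minus strand, mm9) encodes the related mitophagy receptor NIX. It had 3031, 3384, 4009 and 4008 normalized counts in Ctrl 33, 34, 41 and 43 and 4912, 5126, 4692 and 3676 in TKO 35, 37, 47 and 48. TKO 48 was inside the Ctrl range. *Bnip3l* rose by 0.64 ± 0.12 in the thirties (adjusted p = 0.0146), and its change in the forties was 0.06 ± 0.12 (adjusted p = 0.829).

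*Ndufa4l2* (chr10:126951995-126954208, plus strand, mm9), whose product lowers respiratory chain activity in low oxygen, had the largest fitted change of all members. It had 94.81, 23.04, 70.62 and 34.64 normalized counts in Ctrl 33, 34, 41 and 43 and 414.2, 325.3, 321.5 and 94.05 in TKO 35, 37, 47 and 48. The Ctrl clones themselves spread widely, and TKO 48 lay just under Ctrl 33 and above both Ctrl clones of the forties. With the series term *Ndufa4l2* rose by 2.35 ± 0.48 (adjusted p = 0.0284), and without that term the change was 2.42 ± 0.52 (adjusted p = 0.127). *Higd1a* (chr9:121757678-121767118, minus strand, mm9), a small inner membrane protein that binds the respiratory chain, had 512.0, 529.9, 644.9 and 602.1 normalized counts in the Ctrl clones and 797.3, 889.0, 928.6 and 724.2 in the TKO clones. Its genotypes did not overlap, and it rose by 0.55 ± 0.12 with the series term (adjusted p = 0.0333).

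Of the collagen hydroxylases, which modify procollagen in the endoplasmic reticulum, *P4ha1* alone passed with the series term. Higher with that term were 2.6% of all records. *P4ha1* (chr10:58786044-58836052, plus strand, mm9), a catalytic subunit of prolyl hydroxylase, had 2116, 1960, 1747 and 1688 normalized counts in Ctrl 33, 34, 41 and 43 and 3342, 3140, 2696 and 1973 in TKO 35, 37, 47 and 48. TKO 48 again lay inside the Ctrl range, although above both Ctrl clones of the forties. *P4ha1* rose by 0.56 ± 0.11 with the series term (adjusted p = 0.0249). Its paralog *P4ha2* had a fitted change of 0.95 ± 0.30 over all clones (adjusted p = 0.231) on counts of 11.2 to 21.8 in Ctrl and 23.1 to 36.2 in TKO. *Plod2*, a lysyl hydroxylase, was the member with the most negative value, -0.33 ± 0.27 (adjusted p = 0.58). It had at most 29 reads in a library, and its value was 0.01 with the libraries thinned to the smallest total. In the thirties both TKO clones lay below both Ctrl clones for *Plod2*, with a change of -0.72 ± 0.33 (adjusted p = 0.1725).

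The 2 tested secreted and pH genes gave 0 calls over all clones, with 1, *Car9*, higher at an unadjusted p under 0.05 (7.42% of all records). *Adm* (chr7:117771175-117773331, plus strand, mm9), the vasodilator peptide adrenomedullin and the group's best-counted gene, had 173.4, 87.84, 167.2 and 242.5 normalized counts in Ctrl 33, 34, 41 and 43 and 151.1, 119.7, 157.3 and 133.4 in TKO 35, 37, 47 and 48. The TKO clones fell within the Ctrl range, and the change was -0.26 ± 0.28 (adjusted p = 0.676). Within the forties both TKO clones lay below both Ctrl clones, with a change of -0.50 ± 0.31 (adjusted p = 0.407). *Car9*, the membrane carbonic anhydrase, is described because of its values. It had 54.18, 21.60, 21.81 and 22.41 normalized counts in the Ctrl clones and 96.20, 106.2, 40.07 and 23.94 in the TKO clones. *Car9* rose in the thirties by 1.53 ± 0.40 (adjusted p = 0.0388), and its change in the forties was 0.52 ± 0.42 (adjusted p = 0.536).

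Among the regulatory targets, *Ndrg1* passed with the series term, and *Ndrg1*, *Ankrd37* and *Bhlhe40* rose in the thirties. That was 1 and 3 of 5 tested, against 2.6% and 4.83% of all records higher. *Ndrg1* (chr15:66760883-66801202, minus strand, mm9), a stress-induced gene, had 766.6, 685.4, 573.3 and 446.3 normalized counts in Ctrl 33, 34, 41 and 43 and 2499, 2638, 2258 and 892.6 in TKO 35, 37, 47 and 48. TKO 48 was well under the other TKO clones but above every Ctrl clone. *Ndrg1* rose by 1.73 ± 0.24 with the series term (adjusted p = 0.0084). Over all clones the change was 1.75 ± 0.31 (adjusted p = 0.0675), with 1.83 in the thirties (adjusted p = 0.0146) and 1.63 in the forties (adjusted p = 0.0516).

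*Ddit4* (chr10:59412423-59414518, minus strand, mm9), an inhibitor of mTOR signalling, had 3562, 1908, 2527 and 2095 normalized counts in Ctrl 33, 34, 41 and 43 and 3921, 3918, 5310 and 2278 in TKO 35, 37, 47 and 48. The groups overlapped, and the change of 0.62 ± 0.26 did not pass (adjusted p = 0.318). It was 1 of 2 members whose fitted change was larger in the forties (0.71) than in the thirties (0.53), the other being *Plod2*. *Bhlhe40*, a transcriptional repressor, rose by 1.32 ± 0.35 in the thirties (adjusted p = 0.0404) and *Ankrd37*, an ankyrin repeat gene, by 1.07 ± 0.25 (adjusted p = 0.0263). *Mxi1*, a MAX partner that opposes MYC, had a change of 0.22 ± 0.37 on at most 36 reads in a library.

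**Figure D2:**
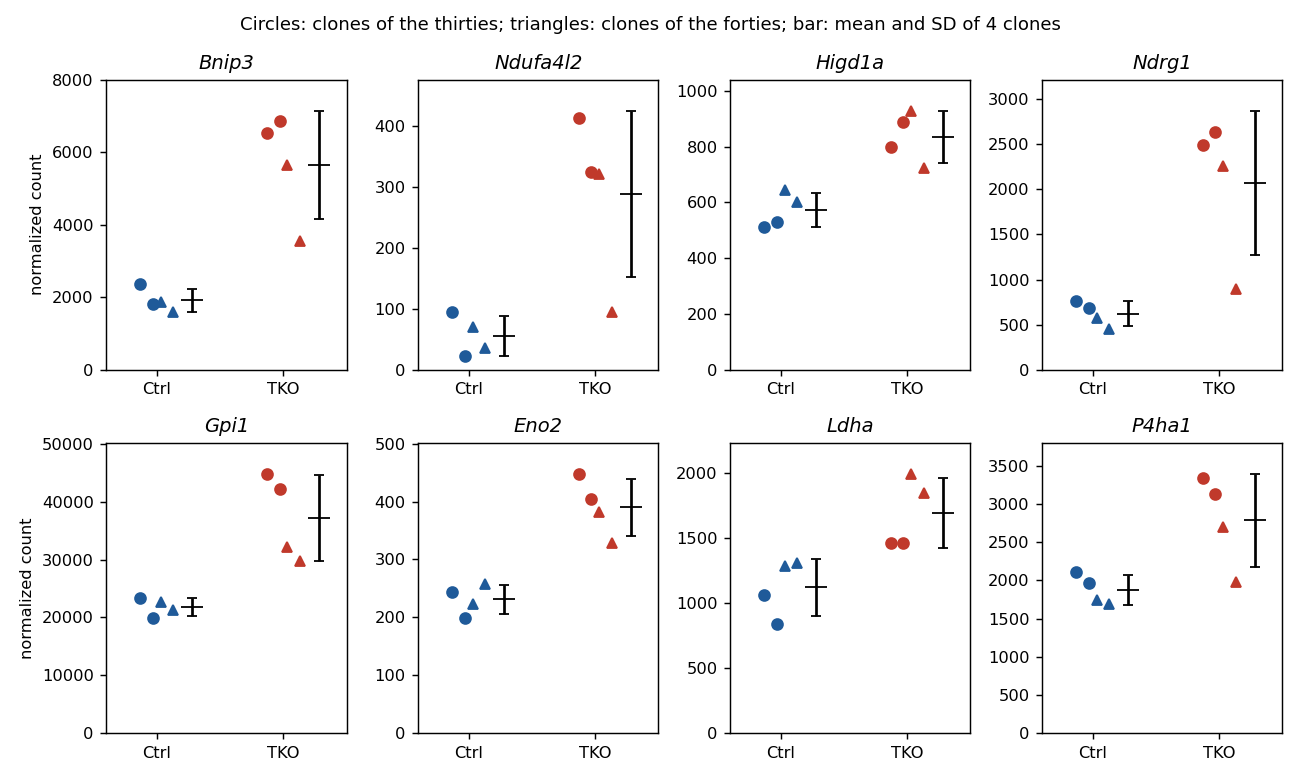
Normalized counts of the 8 members called with the series as a term, with Ctrl clones in blue and TKO clones in red, and the bar giving the mean and SD of 4 clones. Circles are thirties and triangles forties clones. TKO 48, the lower red triangle in each panel, lies under the highest Ctrl clone for *Ndufa4l2* (94.05 against 94.81) and *P4ha1* (1973 against 2116).

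The within-series comparison asks whether the genotypes differ among clones whose numbers lie close together. In the thirties 18 of 32 members rose and 0 fell, against 11.9% of all records called (4.83% higher and 7.05% lower), and the median member change was 0.70. In the forties 2 of 32 rose, *Gpi1* and *Bnip3*, and 0 fell, against 1.98% of all records (0.813% higher and 1.17% lower). The median there was 0.26, against 0.01 for all records. Both TKO clones lay above both Ctrl clones for 28 members in the thirties (29.5% of all records), for 15 in the forties (26.6%) and for 14 in each of the series (11.2%). The thirties count was 0 without TKO 35 and 2 without TKO 37, fits in which the lone clone of its group is taken to vary like the others, and 11 to 21 without any other clone. In the thirties 8 of 10 fibroblast markers were lower in TKO, with a median change of -1.31, and TKO 35 and 37 are the deepest libraries. The part of the fibroblast markers in the thirties result was not tested, and with all libraries thinned to 8983203 reads 16 members rose there. In the forties 0 of 10 fibroblast markers passed, with a median of 0.56. Both TKO clones lay above both Ctrl clones there for 6 of these markers (26.6% of all records).

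The change was larger in the thirties than in the forties for 30 of 32 members, a direction that 48.3% of all records took, and the median difference was -0.38 on the log2 scale. No member passed the test of that difference in edgeR, against 1.3% of all records, with 6 members larger in the thirties at an unadjusted p under 0.05 (8.01% of all records) and calls for 2 in DESeq2 and 0 in limma-voom. The 6 were *Gpi1*, *Aldoc*, *Gapdh*, *Pgk1*, *Bnip3l* and *Ankrd37*. *Aldoc* had the most negative difference, -1.70 ± 0.52 (adjusted p = 0.129), and *Gpi1* had the smallest p, with -0.51 ± 0.15 (adjusted p = 0.111). The calls of DESeq2 were these same 2 genes. *Bnip3*, *Ndrg1* and *Ldha* had differences of -0.27 ± 0.29, -0.20 ± 0.48 and -0.06 ± 0.18, each smaller than its own standard error.

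**Figure D3:**
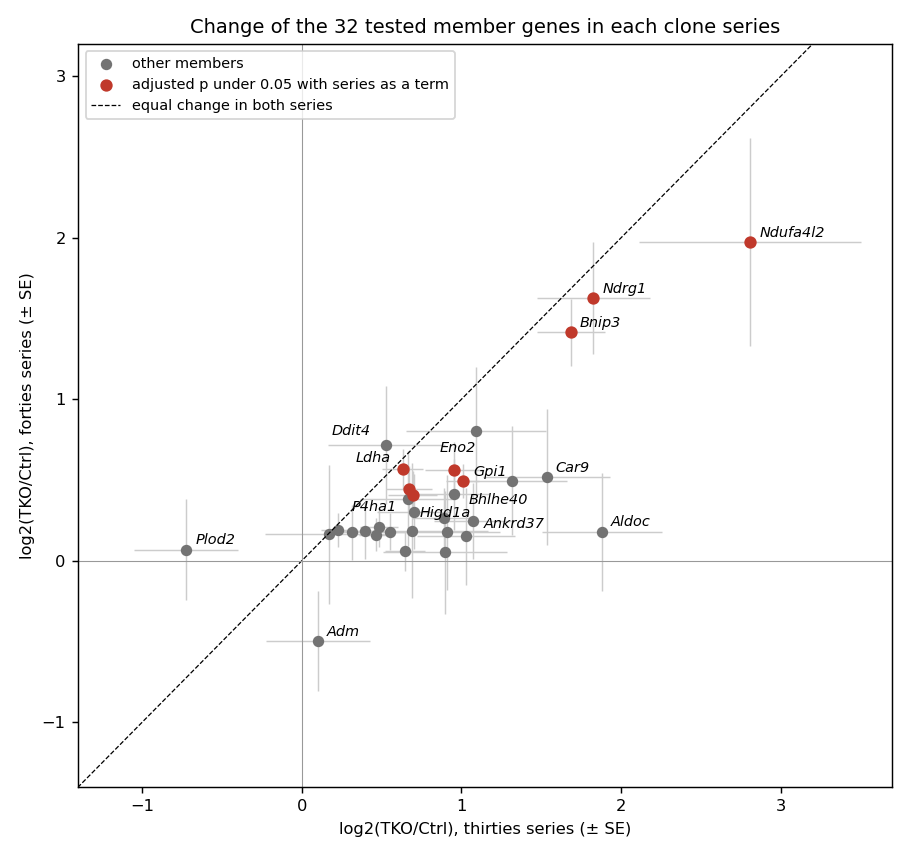
Log2 fold change of TKO over Ctrl in the thirties series (x axis) and the forties series (y axis) for the 32 tested members, with bars of 1 SE. Of the points, 30 lie below the dashed line of equal change, and *Bnip3*, *Ndrg1* and *Ldha* lie within 1 SE of their difference from it.

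The series themselves were compared with genotype in the model. There 2 members were higher in the forties clones, *Hk2* (0.42 ± 0.08, adjusted p = 0.00761) and *Ldha* (0.42 ± 0.09, adjusted p = 0.014). Another 4 were lower there, *Slc2a3* (-0.44 ± 0.10, adjusted p = 0.0141), *Pfkm* (-1.13 ± 0.27, adjusted p = 0.0181), *P4ha1* (-0.36 ± 0.11, adjusted p = 0.0421) and *Car9* (-1.26 ± 0.33, adjusted p = 0.0257). These 6 of 32 members (18.8%) are close to the 19.4% of all records called (9.84% higher and 9.56% lower). On leaving out a clone, the call of *P4ha1* was kept only without Ctrl 34 or TKO 47. That of *Car9* was kept only without Ctrl 34, Ctrl 41 or Ctrl 43. Ctrl 34 had 21.60 normalized counts of *Car9* against 21.81 and 22.41 in Ctrl 41 and 43.

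Genes of the same pathways outside the 35 were read beside them, and the difference between the lists was not tested. Of 39 other glycolysis genes, 33 were tested, with a median change of 0.17 over all clones. There 1 rose, against 0.0862% of all records higher. In the thirties 7 rose and 0 fell, against 4.83% of all records higher and 7.05% lower. The gene called over all clones was *Eno1b*, a near-identical copy of *Eno1*, with 372.9 to 613.4 normalized counts in Ctrl and 5503 to 6903 in TKO. Reads of *Eno1* and *Eno1b* may have been split between the records, and *Eno1* ranged from 12000 to 17110 in Ctrl and from 5861 to 19460 in TKO with a change of -0.12 (adjusted p = 0.881). *Pkm*, pyruvate kinase, had a change of 0.28 (adjusted p = 0.276). With the series term 4 of the 33 rose, *Eno1b*, *Ldhd*, *Pdk2* and *Pgm1*, and 1 fell, *Slc16a1*. All records had 2.6% higher and 3.1% lower there. *Pgm1*, phosphoglucomutase, which links glycogen to glycolysis, rose with that term by 1.09 (adjusted p = 0.00798). In the thirties *Pdk4*, a pyruvate dehydrogenase kinase, rose by 1.33 (adjusted p = 0.00336) and *Ldhb*, the other lactate dehydrogenase subunit, by 0.86 (adjusted p = 0.0136).

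Other HIF targets went both ways. Of 40, 36 were tested, with a median change of 0.11 over all clones. In the thirties 3 rose and 6 fell, against 4.83% of all records higher and 7.05% lower. With the series term 1 rose, *Fam162a*, and 3 fell, among them *Lox* and *Errfi1*, against 2.6% higher and 3.1% lower. Among those that rose in the thirties, *Fam162a*, a mitochondrial HIF target, rose by 1.15 (adjusted p = 0.0146) and *Ero1l*, an oxidase of the endoplasmic reticulum, by 0.83 (adjusted p = 0.0199). Among the 6 that fell in the thirties were the lysyl oxidases *Lox* and *Loxl2* and also *Stc1*, and the causes were not tested. The stanniocalcins, secreted hormones of calcium balance, differed between the series. *Stc1* fell by 1.03 in the thirties (adjusted p = 0.0277) and rose by 1.77 in the forties (adjusted p = 0.0211), and the test of the difference passed (2.80, adjusted p = 0.0197). *Stc2* had -0.61 in the thirties (adjusted p = 0.0676) and rose by 1.06 in the forties (adjusted p = 0.0343), with a difference of 1.67 (adjusted p = 0.0331).

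Of 10 HIF subunits and oxygen sensors, 9 were tested and 1 passed over all clones, against 0.24% of all records. It was *Epas1*, which encodes HIF2 alpha (adjusted p = 0.00787), and it fell by 1.69 on the log2 scale in the thirties and 1.33 in the forties. *Hif1a*, the alpha subunit made in most cells, fell within each series, by 0.54 in the thirties (adjusted p = 0.0156) and 0.50 in the forties (adjusted p = 0.0491). *Egln1*, the main oxygen-sensing prolyl hydroxylase and itself a HIF target, had a change of 0.77 over all clones (adjusted p = 0.0656) and rose by 0.95 in the thirties (adjusted p = 0.0101). *Egln3*, another HIF-induced hydroxylase, had 0.86 (adjusted p = 0.277). *Arnt*, *Arnt2*, *Vhl*, *Egln2* and *Hif1an* ran from -0.66 to 0.35 over all clones and 0 of these 5 passed, although *Arnt2*, a HIF beta subunit, fell by 1.44 in the thirties (adjusted p = 0.0119). The pentose phosphate list (9 of 10 tested, 2 higher and none lower by unadjusted p under 0.05) and the mitophagy and autophagy list (15 of 15 tested, 0 at an unadjusted p under 0.05) had 0 calls over all clones, with medians of -0.04 and 0.02. In the thirties *Pgd* and *H6pd*, dehydrogenases of the pentose phosphate pathway, fell by 0.51 (adjusted p = 0.0124) and 0.80 (adjusted p = 0.0197). The most expressed genes of the pentose phosphate list were *Tkt* and *Taldo1*, enzymes that return pentoses to glycolysis, with changes of 0.25 and 0.51. *Taldo1* was the 1 gene of that list called with the series term, where 2.6% of all records were higher. It was also called over all clones in DESeq2 and in edgeR's exact test. In the mitophagy and autophagy list, with 0 calls with the series term, they were *Ulk1* and *Phb2*, an autophagy kinase and a mitophagy receptor, with -0.01 and 0.00.

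**Figure D4:**
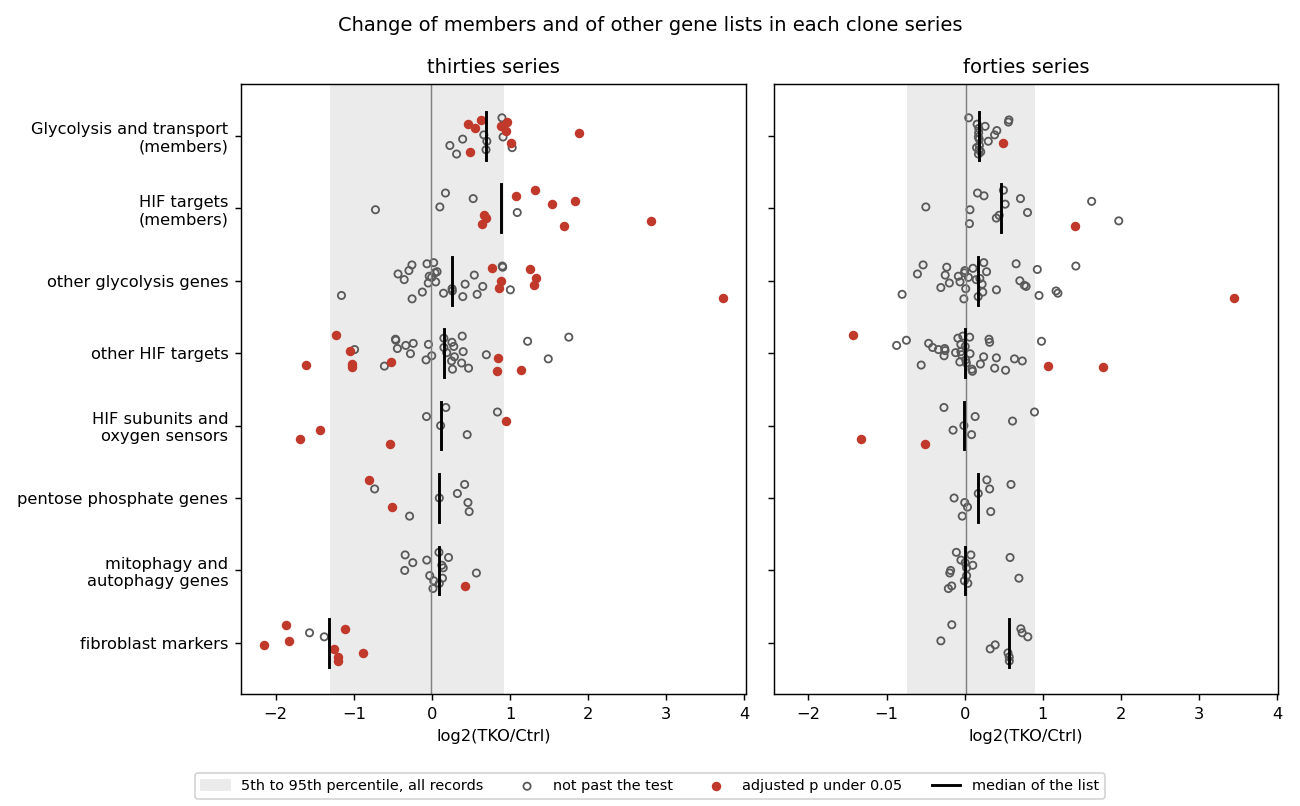
Log2 fold change of TKO over Ctrl for every tested gene of 8 lists, in the thirties (left) and forties (right), with red points at an adjusted p under 0.05, a black bar at each list's median and grey for the 5th to 95th percentile of all records. The members' points lie mostly right of 0 in both panels, and the fibroblast markers lie left of 0 in the thirties (median -1.31) and mostly right of it in the forties (median 0.56).

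The promoters of 5 members called with the series term are shown, 4 with the HIF motif core and *Gpi1* without it, and they are drawn from RefSeq windows of the GRCm38.p6 build, a different build from that of the counts. Each is the 250 bases before a transcription start, 5′ to 3′ on the gene's strand. Capitals mark ACGTG and GCGTG on the strand shown, or their reverse complements CACGT and CACGC, and CACGTG holds ACGTG on both strands.

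Bnip3 chr7:138909507-138909756 minus: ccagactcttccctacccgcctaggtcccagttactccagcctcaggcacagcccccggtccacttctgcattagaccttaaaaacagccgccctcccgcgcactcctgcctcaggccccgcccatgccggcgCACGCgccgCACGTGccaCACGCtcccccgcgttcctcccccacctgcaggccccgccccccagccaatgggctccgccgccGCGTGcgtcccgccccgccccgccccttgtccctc
Ldha chr7:46845554-46845803 plus: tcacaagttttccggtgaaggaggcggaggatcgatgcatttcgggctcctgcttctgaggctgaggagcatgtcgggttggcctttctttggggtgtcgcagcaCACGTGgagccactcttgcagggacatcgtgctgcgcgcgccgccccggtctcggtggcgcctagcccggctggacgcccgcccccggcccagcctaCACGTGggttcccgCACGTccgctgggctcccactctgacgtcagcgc
P4ha1 chr10:59323046-59323295 plus: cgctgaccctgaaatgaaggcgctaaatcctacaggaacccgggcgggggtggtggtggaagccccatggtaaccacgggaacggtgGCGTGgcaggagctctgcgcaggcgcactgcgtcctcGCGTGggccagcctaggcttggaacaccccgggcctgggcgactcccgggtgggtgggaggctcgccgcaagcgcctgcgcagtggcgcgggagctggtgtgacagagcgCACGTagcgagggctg
Higd1a chr9:121857797-121858046 minus: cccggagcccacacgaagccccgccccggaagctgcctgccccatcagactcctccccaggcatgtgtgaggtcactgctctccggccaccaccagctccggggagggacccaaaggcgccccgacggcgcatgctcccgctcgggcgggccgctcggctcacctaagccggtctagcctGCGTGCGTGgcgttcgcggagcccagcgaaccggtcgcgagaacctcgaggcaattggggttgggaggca
Gpi1 chr7:34230337-34230586 minus: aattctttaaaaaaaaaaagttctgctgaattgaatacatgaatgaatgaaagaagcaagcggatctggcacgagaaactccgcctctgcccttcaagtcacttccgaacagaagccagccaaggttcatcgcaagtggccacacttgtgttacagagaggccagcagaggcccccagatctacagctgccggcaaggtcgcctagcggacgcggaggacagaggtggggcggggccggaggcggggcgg

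*Bnip3* has its first matches 117, 108 and 107 bases before the start, where the pair at 108 and 107 is 1 CACGTG, and others at 99 and 35 bases. *Ldha* has CACGTG at 145 and again at 48 bases before the start of the window shown, out of 2 windows. *Gpi1*, called within both series, has none in its window, and neither has *Eno2*, also called with the series term, nor *Tpi1*. Bases past the start were found in a transcript of the gene for *Bnip3*, *P4ha1*, *Higd1a*, *Eno2* and *Tpi1*. They were not found for *Ldha* and *Gpi1*, whose starts were therefore not checked in that way. Windows of 300 bases, reaching 50 past the start, were found for 29 of the 35 members, 44 windows in all, and not for *Bhlhe40*, *Bnip3l*, *Ndrg1*, *Ndufa4l2*, *Plod2* and *Slc2a3*. On either strand, 33 of the 44 held ACGTG or GCGTG, against 43.8% of 32851 windows of all genes. The list was drawn up to include HIF targets, so no conclusion is drawn from the shares of the members. Overlapping windows of *Aldoa* and of *Pfkm* also count the same match again. The members' windows are rich in G and C (median 62.2%, against 52.7%), and 69.2% of all windows with at least 60% G and C held a match. ACGTG alone was in 56.8% of the members' windows, in 19.6% of all windows and in 26.5% of the GC-rich ones. A match is a run of letters and was not compared with any binding data.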

How the data were processed

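RNA from 8 iPSC clones was sequenced, and the authors deposited raw read counts, 1 for each clone and RefSeq record, from single-end reads of TruSeq libraries mapped with BWA (0.7.5a in the submitters' processing notes) to mm9 transcripts. Rules for counting, strand and reads with several matches are not given in the sources used here. Counts were neither scaled nor filtered.

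Symbols came from a RefSeq table of GRCm38.p6, used for names only, and matched 26321 of 27052 records. Gene coordinates are mm9. The filter kept 16235 records that reached 5 reads in 4 or more of the 8 libraries, and these were scaled by median-ratio size factors (0.369 to 2.07), as in the study's methods. edgeR 4.0.16 in R 4.3.3 (glmQLFit, glmQLFTest) was fitted to all records, and p-values were adjusted over them (Benjamini-Hochberg, 0.05). The models were genotype, genotype plus series, and 4 groups of genotype by series. Standard errors come from the log2 fold change and F. Normalized counts are counts divided by size factors. Totals ran from 8983203 to 52457455 reads, and low counts are least precise in Ctrl 33.

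The alternatives used TMM scaling, left out the filter or asked for 10 reads in each of the libraries, used DESeq2 1.42.0, edgeR's exact test, limma-voom (limma 3.58.1), summed records, thinned libraries, each series alone or the series as a covariate, and left out each clone in turn. Alternatives of the count with the series term were chosen after seeing the data. The fits were also run on counts simulated with no difference between the series, and nothing is concluded from that run here. Given in every clone are members called over all clones, with the series term or in both series, and the best-counted member of each role, while *Aldoc* and *Car9* were chosen after their values were seen. Of the other lists, called genes (at most 6) or the 2 best counted are named, except for 1 gene among the other HIF targets that is not reported here. The members and lists were chosen with earlier results of these data known.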

Additional observations from a re-analysis of the deposited data

Results flagged for a closer look

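Each tested member was checked for a clone that stands far from the other 3 of its genotype, in 64 groups of 4 clones, and such a check marks about 1 group in 20 by chance. It marked 2 groups, both for Ctrl 33. In *Car9* the gap between Ctrl 33 (54.18 normalized counts) and the next clone took up 0.975 of the range of the Ctrl clones, the others being 21.60 to 22.41. In *Mxi1* the gap took up 0.906, with 24.38 in Ctrl 33 and 10.19 to 11.52 in the others. Ctrl 33 is the shallowest library.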

How the results depend on the processing

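No paired analysis was possible because no clone number occurs in both genotypes. The count of members called over all clones, 1, became 3 without the filter (*Gpi1*, *Bnip3*, *Ndrg1*), 7 in DESeq2, 6 in edgeR's exact test and 8 with the series as a covariate, and 0 to 7 on leaving out a clone. It was 0 without Ctrl 34, Ctrl 41, Ctrl 43, TKO 35 or TKO 47, and 7 without TKO 48. With the series term the 8 calls became 13 without the filter and 16 in DESeq2, and 2 to 20 on leaving out a clone. The 18 calls in the thirties ran from 0 (without TKO 35) to 21 (without Ctrl 33), with 2 without TKO 37 and 11 without Ctrl 41, and stayed within 1.5 times under the other alternatives. The 2 calls in the forties became 5 without the filter and 4 in DESeq2, and 0 to 4 on leaving out a clone: 0 without Ctrl 41, Ctrl 43, TKO 35 or TKO 37, 1 without TKO 47 and 4 without Ctrl 33 or Ctrl 34. The difference between series had 1 call without the filter and 2 in DESeq2, and 0 to 4 on leaving out a clone, 4 without TKO 47 and 2 without Ctrl 33. The 6 calls between series ran from 2 (without TKO 35) to 12 (without Ctrl 34), with 3 without TKO 37. The 3 calls among other pathway genes became 10 in DESeq2, 9 in the exact test, 13 with the covariate, and 3 to 7 on leaving out a clone, 7 without TKO 48. *Bnip3* was called in every alternative over all clones that kept all 8. No other count moved by over 1.5 times, and the causes were not tested. Shares of all records called under each alternative are not given here, so these counts do not set the members apart from other records.

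Some fitted changes that were not called crossed 0. Over all clones *Plod2* became 0.010 in thinned libraries, and *Eno1* ran from -0.29 (without TKO 47) to 0.14 (without TKO 37). In the thirties *Adm* became -0.035 in thinned libraries, and on leaving out a clone *Adm* ran from -0.36 to 0.62, *Slc16a3* from -0.011 to 1.41 and *Mxi1* from -0.39 to 0.69, lowest without Ctrl 34 and highest without Ctrl 33. In the forties the lowest value came without TKO 47 for *Slc2a1* (-0.062 to 0.40), *Slc16a3* (-0.23 to 0.53), *Hk1* (-0.34 to 0.53), *Pfkl* (-0.12 to 0.63), *Pfkp* (-0.010 to 0.36), *Aldoc* (-0.55 to 0.67), *Tpi1* (-0.027 to 0.75), *Pgk1* (-0.12 to 0.56), *Pdk1* (-0.57 to 0.49), *Bnip3l* (-0.12 to 0.23), *Ddit4* (-0.020 to 1.199) and *Bhlhe40* (-0.17 to 0.95). It came without Ctrl 43 for *Pfkm* (-0.12 to 0.54), *Plod2* (-0.065 to 0.21) and *Ankrd37* (-0.030 to 0.59). There *Pdk1* became -0.051 in limma-voom, *Slc16a3* -0.024 and *Pfkm* -0.53 in thinned libraries, and *Plod2* -0.048 with records summed.

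With 2 clones per genotype and series, exact tests within a series could not pass 0.05, and genes under about 30 reads are imprecise.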
